A study of Mus musculus with 36 samples.

Results

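The BCL2 family decides whether a cell releases cytochrome c from its mitochondria and dies, and 10 of its genes were followed here through B cell development in mouse: the pro-survival genes Bcl2, Bcl2l1 and Mcl1, the BH3-only genes Bcl2l11, Bbc3, Pmaip1, Bid and Bad, and the effector genes Bax and Bak1. They were taken by symbol from every RNA-seq table of the series. Each symbol was found on 1 row in each table, among 46078 rows for sorted cells, 35896 for Pax5-/- cells and 18721 for cultured wild-type and Sirt7-/- cells, and all 10 passed the filter on low values in each, among 17649, 13345 and 13651 genes tested. Pax5 peaks were counted over each gene and the 10 kb upstream of its start.

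The study asked how the deacetylase SIRT7 and the acetylation of the B cell transcription factor Pax5 at the lysine K198 act on early B cells. Pro-B cells (IgM-CD43+) and the later pre-B cells (IgM-CD43-) were sorted by surface markers from bone marrow of wild-type and Sirt7-/- 129Sv mice (2 mice of each genotype, each giving 1 pro-B and 1 pre-B library), where Sirt7-/- is a germline deletion carried by all cells of the animal. Pax5-/- pro-B cells, which according to the methods came from fetal liver of the C57BL/6 background although the labels call all cultured cells bone marrow pro-B cells, received a retrovirus with a surface marker and either no insert (EV), wild-type Pax5 (Pax5WT), K198Q, in which glutamine mimics the acetylated lysine, or K198R, in which arginine mimics the deacetylated lysine. The last table holds cultured pro-B cells of wild-type mice, which carried EV, and of Sirt7-/- mice, which carried EV, Pax5WT or K198R. All cultured cells grew on inactivated OP9 stroma with added IL-7, SCF and FLT3-L, and the retroviral promoter rather than that of Pax5 drove the insert. Every group had 2 libraries, and Pax5 ChIP-seq was made in Pax5-/- cells carrying Pax5WT, K198Q or K198R, with 2 peak lists a form.

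Pro-survival members hold the effectors BAX and BAK1 in check at the outer mitochondrial membrane. BH3-only proteins, made or switched on under stress or loss of cytokine, bind the pro-survival proteins and free or activate the effectors. In B cell progenitors IL-7 keeps the balance on the side of survival, and MCL1 is needed at these stages. BCL-XL (the product of Bcl2l1) is known for its role in pre-B cells. BIM (the product of Bcl2l11) removes cells that lose their survival signal.

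The targeted genes were checked first. Sirt7 normalized counts were 2692 and 2533 in wild-type and 363 and 366 in Sirt7-/- sorted pro-B cells, and 5613 and 5219 against 1066 and 821 in pre-B cells. In culture Sirt7 stood at 1324 and 905 in wild-type EV and at 325 to 407 in the 6 Sirt7-/- libraries. The labels and the transcript went together, with counts left in the Sirt7-/- libraries.

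Pax5 itself was read at 2201 and 2103 normalized counts in Pax5-/- EV cells, 6458 and 6152 with Pax5WT, 8918 and 8963 with K198Q and 21162 and 16609 with K198R. Mean Pax5 was thus 18886 with K198R and 6305 with Pax5WT (log2 fold change 1.57 ± 0.12 SE, adjusted p = 0.0029), and in Pax5-/- cells every comparison of K198R with the other inserts holds a difference in Pax5 transcript as well as the change of residue. The part of Pax5 dose was not tested. In the Sirt7-/- cultures Pax5 was 25995 and 37113 with EV, 43024 and 43260 with Pax5WT and 38690 and 45426 with K198R, where the inserts add to the cells' own gene.

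Markers of B cell progenitors were read in all libraries, and among the Pax5-/- cells their sums were lowest with EV. In the sorted cells the 11 markers summed to between 364349 and 633796 normalized counts a library, led by Cd79a, the signalling chain of the B cell receptor. In the Pax5-/- cells the 10 found summed to 21811 and 26591 with EV, 61281 and 65177 with Pax5WT, 51267 and 48285 with K198Q and 90168 and 93662 with K198R, led by Igll1, a surrogate light chain gene. Genes of immature and mature B cells, led by Ighd, moved with stage in the sorted cells. Of 6 tested, 6 were called higher with stage in wild-type and 5 in Sirt7-/- cells. Their sums were 22596 and 22926 in wild-type pro-B and 28482 and 26892 in Sirt7-/- pro-B cells. At the later stage the sums were 132661 and 103115 in wild-type pre-B and 222891 and 155614 in Sirt7-/- pre-B cells. Between genotypes the sums did not overlap at either stage, but 0 of the 6 genes were called. Erythroid genes were highest in the 2 libraries of Sirt7-/- mouse 2, at 26014 in pro-B and 45034 in pre-B cells against 3560 to 11635 in the other libraries. Cell cycle genes, led by Mki67, summed to between 255037 and 295235 in the pro-B and between 74381 and 153663 in the pre-B libraries, and all 8 fell with stage in both genotypes. Stage was taken from the libraries' titles, since a further label field gives the cell type differently for part of the sorted libraries, and by both gene groups the 4 libraries titled pre-B stood apart from the 4 titled pro-B. T cell and myeloid markers also differed between the stages: T cell genes, led by Lck, summed to 5610 to 6100 in pro-B and 3025 to 3624 in pre-B libraries, with 7 of 9 called lower in wild-type and 5 in Sirt7-/- cells, and myeloid genes to 33542 and 24478 in wild-type pro-B, 15197 and 14871 in wild-type pre-B, 26836 and 9531 in Sirt7-/- pro-B and 11498 and 10674 in Sirt7-/- pre-B cells. The myeloid sums overlapped between the stages in Sirt7-/- cells. Of 7 myeloid genes, 2 were called lower and 1 higher in wild-type, and 3 lower and 1 higher in Sirt7-/- cells. In each genotype 2 of 5 plasma cell genes were called higher and 1 lower, and 1 of 5 erythroid genes was called lower. The part of cells of these kinds in the changes with stage was not tested. In these bulk samples a change in the share of cells of a kind and a change in RNA per cell cannot be told apart.

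Levels of the members can be compared with each other only per length. Per kb of exon, Mcl1 and Bak1 were the most abundant members in all 8 sorted libraries, with medians of 6132 and 4591 normalized counts per kb, and Pmaip1 and Bcl2 the least, with 22.2 and 61.0. In the Pax5-/- cells Mcl1 ranked first in every library (2127 to 2568 per kb), Bcl2l11 followed with a median of 1508, and Bcl2l1 had a median of 90.7. In the wild-type and Sirt7-/- cultures Bax and Mcl1 shared the first places, with medians of 2489 and 2201 per kb, and Bcl2 ranged from 64.9 to 412. The 3 tables were normalized separately, so these levels rank members within a table and are not compared across tables.

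The change from pro-B to pre-B cells moved more members than any other comparison. In wild-type cells all 3 pro-survival genes and the BH3-only genes Bcl2l11 and Bbc3 rose and the BH3-only gene Bid fell; in Sirt7-/- cells the pro-survival genes rose and Bid fell. That is 5 of 10 members higher and 1 lower in wild-type cells, where 18.1% of all genes tested were called higher and 22% lower, and 3 higher and 1 lower in Sirt7-/- cells, against 16.5% and 19.2%. In either direction 40.2% and 35.7% of all genes were called, and the stages did not overlap for 9 and 6 members, beside 72.6% and 69.8% of all genes. The median log2 change of the members was 0.58 in wild-type and 0.34 in Sirt7-/- cells, beside -0.04 over all genes in each.

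Bcl2l1, which encodes BCL-XL, was read at 2128 and 2043 in wild-type pro-B and 5213 and 5627 in wild-type pre-B cells, and at 1716 and 2176 in Sirt7-/- pro-B and 4496 and 3866 in Sirt7-/- pre-B cells. Every pre-B library lay above every pro-B library. The log2 change was 1.38 ± 0.14 in wild-type (adjusted p = 0.000547) and 1.11 ± 0.14 in Sirt7-/- cells (adjusted p = 0.00175).

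Mcl1, whose short-lived protein is needed throughout early lymphoid development, had 13036 and 15971 counts in wild-type pro-B, 31215 and 33691 in wild-type pre-B, 12868 and 14579 in Sirt7-/- pro-B and 29042 and 25949 in Sirt7-/- pre-B cells. The stages did not overlap in either genotype. Mcl1 rose 2.24-fold in wild-type (log2 change 1.17 ± 0.12, adjusted p = 0.00065) and 2.0-fold in Sirt7-/- cells (1.0 ± 0.12, adjusted p = 0.00164).

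Bcl2, the founding pro-survival gene, was read at 370 and 489 in wild-type pro-B, 667 and 629 in wild-type pre-B, 424 and 389 in Sirt7-/- pro-B and 1389 and 1087 in Sirt7-/- pre-B cells. The pre-B libraries of the knockout mice stood above all others, and the pro-B libraries of the genotypes overlapped. The rise with stage was 3.05-fold in Sirt7-/- cells (log2 change 1.60 ± 0.19, adjusted p = 0.00151) and 1.51-fold in wild-type cells (0.61 ± 0.19, adjusted p = 0.0426). The wild-type call was lost without the filter on low values (adjusted p = 0.0633), with only the wild-type libraries in the fit (0.0635) and without wild-type pre-B replicate 1 (0.146), pre-B replicate 2 (0.106) or pro-B replicate 1 (0.204). The Sirt7-/- call held in every alternative, at adjusted p of at most 0.0134.

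Bid, which links death receptors to mitochondria once caspase-8 cleaves its product, fell with stage in both genotypes. It had 1304 and 1321 counts in wild-type pro-B, 578 and 459 in wild-type pre-B, 1423 and 1377 in Sirt7-/- pro-B and 567 and 747 in Sirt7-/- pre-B cells. No pre-B library reached the pro-B libraries, and Bid dropped by 1.35 ± 0.18 in wild-type (adjusted p = 0.00135) and by 1.10 ± 0.18 in Sirt7-/- cells (log2 scale, adjusted p = 0.00406).

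Bcl2l11 and Bbc3, which encode the BH3-only proteins BIM and PUMA, were called by limma in wild-type cells. Bcl2l11 was read at 1317 and 1332 in wild-type pro-B, 2841 and 2426 in wild-type pre-B, 1363 and 1695 in Sirt7-/- pro-B and 2583 and 1822 in Sirt7-/- pre-B cells. Its stages did not overlap in either genotype, with a log2 change of 0.99 ± 0.19 in wild-type (adjusted p = 0.00694) and 0.51 ± 0.19 in Sirt7-/- cells (adjusted p = 0.0793). The Sirt7-/- change was called with DESeq2 (adjusted p = 0.0362) and without Sirt7-/- pre-B replicate 2 (0.0226). Bbc3 had 224 and 296 counts in wild-type pro-B, 603 and 402 in wild-type pre-B, 464 and 356 in Sirt7-/- pro-B and 508 and 356 in Sirt7-/- pre-B cells. The stages of Bbc3 overlapped in the Sirt7-/- cells, and its wild-type change of 0.93 ± 0.29 (adjusted p = 0.0406) was lost without the filter (0.0712), with only wild-type libraries in the fit (0.0541) and without wild-type pre-B replicate 1 (0.192), pro-B replicate 1 (0.183) or pro-B replicate 2 (0.0683).

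The effectors moved little with stage. Bak1 was at 11034 and 11485 in wild-type pro-B and 9514 and 8868 in wild-type pre-B cells, a log2 change of -0.29 ± 0.10 with an adjusted p of 0.0501. Bax was at 1908 and 1605 in wild-type pro-B and 2324 and 2057 in wild-type pre-B cells (0.32 ± 0.14, adjusted p = 0.103). Neither passed the threshold, although the stages did not overlap in the wild-type mice. Bak1 was called lower with a pseudocount of 10 (adjusted p = 0.0486), with only the wild-type libraries in the fit (0.0488) and with DESeq2 (0.0476). Bad ranged from 650 to 873 over the 8 sorted libraries and Pmaip1 from 27.5 to 70.6, and neither was called.

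**Figure D1:**
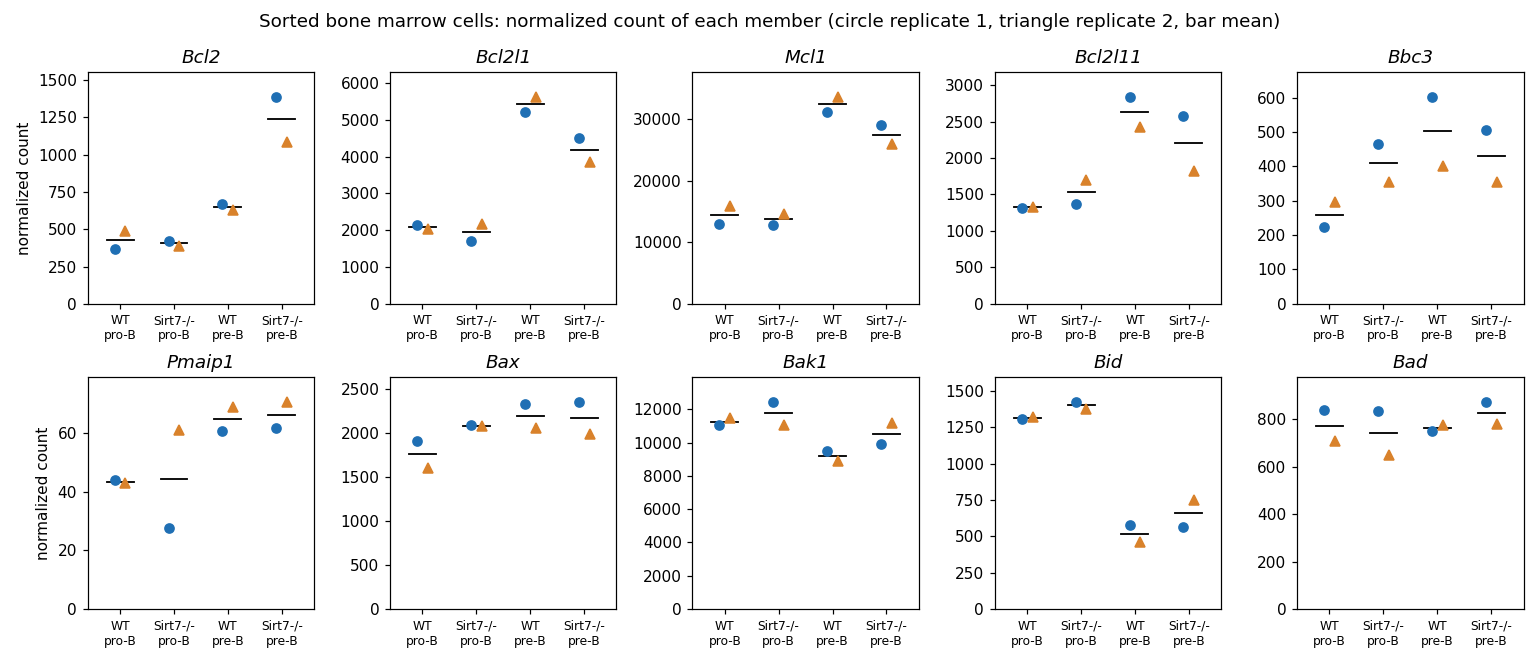
Normalized count of each member (y axis, from 0) in the 8 libraries of sorted cells, by genotype and stage on the x axis; the circle is replicate 1, the triangle replicate 2 and the bar their mean. Bcl2l1 and Mcl1 are higher and Bid lower in all 4 pre-B libraries than in all 4 pro-B libraries, and Bcl2 is highest in the 2 Sirt7-/- pre-B libraries, at 1389 and 1087.

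Other genes of the pathway were counted beside 40.2% of all genes called with stage in wild-type and 35.7% in Sirt7-/- cells. Of 11 other BCL2 family genes tested, 4 rose and 2 fell in wild-type and 3 rose and 2 fell in Sirt7-/- cells, with medians of 0.09 and 0.13 on the log2 scale. Bok, an effector-like member, stood at 407 and 449 in wild-type pro-B and at 5.23 and 17.5 in wild-type pre-B cells (log2 change -5.32 ± 0.71, adjusted p = 0.00147), and at 574 and 488 against 14.9 and 60.1 in Sirt7-/- cells (-4.09 ± 0.71, adjusted p = 0.00557). Bcl2a1b, a copy of the pro-survival gene A1, was at 0 in both wild-type pro-B libraries and at 42.9 and 27.3 in wild-type pre-B cells. Bcl2a1d, also at 0 in wild-type pro-B, reached 42.9 and 25.1. Both were called higher with stage in Sirt7-/- cells as well. There Bcl2a1b rose from a mean of 6.90 to 50.4 (limma, adjusted p = 0.0111) and Bcl2a1d from 7.35 to 42.4 (adjusted p = 0.0247). The A1 copies are nearly identical in sequence, so how their reads were split between them is uncertain.

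Bcl2l14 was at 0 and 2.8 in wild-type pro-B and 59.6 and 14.2 in wild-type pre-B cells (log2 change 3.96 ± 1.0, adjusted p = 0.019). Pim2, a survival kinase, rose in Sirt7-/- cells, from 2841 and 2778 in pro-B to 14896 and 12710 in pre-B cells (2.29 ± 0.11, adjusted p = 0.000103). Among 15 apoptosome, caspase and inhibitor genes 3 rose and 4 fell in wild-type and 1 rose and 3 fell in Sirt7-/- cells. Of 16 genes of upstream survival and death control, 7 rose and 1 fell in each genotype, and of 6 partner and turnover genes 2 rose in wild-type and none was called in Sirt7-/- cells. Bcl2l14 and Pim2 are given for 1 genotype each because up to 4 called genes a comparison were named. The interaction of stage and genotype called no gene of these 4 lists in limma, beside 0.00567% of all genes.

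Loss of Sirt7 in the sorted cells was compared within each stage. In pro-B cells limma called 0 of 10, where 0.0623% of all genes were called, with 0 members at an unadjusted p under 0.05, and edgeR and DESeq2 on the recovered reads called 0 as well, beside 0.0567% and 0.803% of the genes to which they gave an adjusted p. The groups did not overlap for 4 of 10 members, beside 39.3% of all genes. Bbc3 had the lowest p, with 464 and 356 in Sirt7-/- against 224 and 296 in wild-type pro-B cells (log2 difference 0.66 ± 0.29, adjusted p = 0.851).

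In pre-B cells limma and edgeR called 0 of 10 and DESeq2 called 1, Bcl2, while limma called 0.085%, edgeR 0.0283% and DESeq2 4.88% of all genes given an adjusted p. At an unadjusted p under 0.05 in limma stood 2 members, Bcl2 and Bcl2l1. The Bcl2 values given above put Sirt7-/- pre-B cells 1.91-fold over their wild-type counterpart (log2 difference 0.92 ± 0.19, adjusted p = 0.152), with edgeR at an adjusted p of 0.154 and DESeq2 at 0.00244. Leaving out any library gave a difference of 0.75 to 1.10. The summed genes of immature and mature B cells were higher in the same 2 libraries, and their part in the Bcl2 difference was not tested. Of the other markers, all 8 cell cycle genes had a log2 difference above 0 (median 0.55), all 7 myeloid genes one below 0 (median -1.43) and 6 of 9 T cell genes one above 0 (median 0.51). Of 5 NK cell genes 4 were above 0 (median 1.48), of 5 erythroid genes 4 were above 0 (median 0.64), and of 5 tested genes each 4 stromal (median -0.96) and 4 plasma cell genes (median -0.21) were below 0. The summed NK cell genes, at 157 and 695 in Sirt7-/- against 360 and 190 in wild-type pre-B cells, overlapped, as did the stromal ones, at 401 and 321 against 649 and 398. None of these markers was called, and their part was not tested either. The pre-B library of Sirt7-/- mouse 2 had the most erythroid transcript. With this library left out, and the pro-B library of that mouse kept in the fit, the Bcl2 difference was 1.10.

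The other members pointed in both directions in pre-B cells. Bcl2l1 was lower in Sirt7-/- pre-B cells, by -0.38 ± 0.14 on the log2 scale with no overlap (adjusted p = 0.308), and Mcl1 lower by -0.24 ± 0.12 (adjusted p = 0.453). Bid differed by 0.34 ± 0.18 and Bak1 by 0.20 ± 0.10. The groups did not overlap for 5 of 10 members, beside 41.4% of all genes.

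The difference between the stages' responses was tested as an interaction, which called 0 members and 0.00567% of all genes in limma. DESeq2 and edgeR called 0 members (0.667% and 0.00567% of all genes given an adjusted p), and 1 member, Bcl2, had an unadjusted p under 0.05 in limma. Its rise with stage exceeded that of wild-type cells by a log2 value of 0.99 ± 0.27 when Sirt7 was absent (limma, adjusted p = 0.763). For Bbc3 the interaction was -0.87 ± 0.41 (adjusted p = 0.909). The ratio of Bcl2 to Bcl2l11 counts, which does not move with the scaling of a library, was 0.538 and 0.597 in Sirt7-/- pre-B cells and 0.235 and 0.259 in wild-type pre-B cells. In pro-B cells it was 0.311 and 0.230 in Sirt7-/- and 0.281 and 0.367 in wild-type libraries, which overlapped.

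Restoring Pax5 to Pax5-/- pro-B cells addressed what each form of Pax5 does to the members in cells with a targeted Pax5 gene, which still gave the Pax5 counts of the EV libraries above. Pmaip1 and Bcl2l11 fell with K198R against EV. Pmaip1 fell and Bcl2l1 rose with K198R against K198Q, and Pmaip1 fell against Pax5WT. Bcl2 and Mcl1 were not called with any form.

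Pmaip1, which encodes NOXA, the BH3-only antagonist of MCL1, was at 298 and 245 with EV, 426 and 573 with Pax5WT, 554 and 504 with K198Q and 109 and 58.5 with K198R. The K198R libraries were the lowest and the Pax5WT and K198Q libraries overlapped above EV. Against EV, K198R lowered Pmaip1 by -1.75 ± 0.30 on the log2 scale (adjusted p = 0.0106), while the differences of Pax5WT, 0.87 ± 0.30 (adjusted p = 0.216), and of K198Q, 0.97 ± 0.30 (adjusted p = 0.363), did not pass. K198R stood below Pax5WT by -2.61 ± 0.30 (adjusted p = 0.00856) and below K198Q by -2.71 ± 0.30 (adjusted p = 0.00538). The call against EV was lost without EV replicate 1 (adjusted p = 0.077), that against Pax5WT without Pax5WT replicate 2 (0.101) and with only these groups in the fit (0.0629), and that against K198Q without K198Q replicate 2 (0.0546).

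Bcl2l1 had 501 and 384 counts with EV, 382 and 417 with Pax5WT, 415 and 346 with K198Q and 704 and 669 with K198R. The K198R libraries were above all others and the other forms overlapped. The log2 difference was 0.86 ± 0.17 against K198Q (adjusted p = 0.0337), 0.78 ± 0.17 against Pax5WT (adjusted p = 0.0653) and 0.64 ± 0.17 against EV (adjusted p = 0.0606). With a replicate block in limma, the differences from Pax5WT (adjusted p = 0.0167) and from EV (0.0166) were called as well. The call against K198Q was lost without the filter (0.0609), with only these groups in the fit (0.0878) and without any 1 of the 4 libraries (0.0788 to 0.227).

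Bcl2l11 had 15722 and 15144 counts with EV, 12439 and 10673 with Pax5WT, 12879 and 11347 with K198Q and 11780 and 9187 with K198R. Both EV libraries were above all 6 libraries with a Pax5 insert, whose forms overlapped. The log2 difference from EV was -0.57 ± 0.14 with K198R (adjusted p = 0.0417), -0.42 ± 0.14 with Pax5WT (adjusted p = 0.191) and -0.35 ± 0.14 with K198Q (adjusted p = 0.553). With a replicate block in limma, the difference of Pax5WT was called as well (adjusted p = 0.0133). The K198R call was lost without the filter (0.0789), with only these groups in the fit (0.0892) and without EV replicate 1 (0.182), EV replicate 2 (0.133) or K198R replicate 2 (0.17).

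The other members were not called with any insert in the fit without a replicate block. Bcl2 ranged from 4915 to 8352 and was higher in replicate 2 than in replicate 1 of every group. Mcl1 ranged from 7271 to 8779, Bax from 1969 to 2249, Bak1 from 1698 to 2865, Bbc3 from 515 to 789 and Bad from 373 to 478. Bid had 1766 and 1626 counts with EV and 1514 and 1027 with K198R, a log2 difference of -0.44 ± 0.18 (adjusted p = 0.19). With the block in limma, Bid was called (adjusted p = 0.0303). Without K198R replicate 1 the difference of Bid was -0.72 and was called (adjusted p = 0.017).

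In counts, Pax5WT called 0 of 10 members against EV, where limma called 3.25% of all genes and groups did not overlap for 4 members and 42.6% of all genes. K198Q called 0 (0.922% of all genes), with 3 members not overlapping (34.2%), and K198R called 2 lower (9.92% in either direction, 6.05% lower), with 4 not overlapping (46.8%). K198Q against Pax5WT called 0 (0.0225%), with 2 not overlapping (28.7%). K198R against Pax5WT called 1 lower (2.87%, 2.1% lower), with 3 not overlapping (38.4%), and K198R against K198Q called 1 higher and 1 lower (5.01%, 1.45% higher and 3.55% lower), with 2 not overlapping (43.1%). For the comparisons with no call, 2 members had an unadjusted p under 0.05 with Pax5WT, 2 with K198Q and 0 between these forms. In this fit, which has no replicate block, all calls were in comparisons with K198R. They share the same 2 K198R libraries, so these calls, the 3 of Pmaip1 among them, are not independent of each other. With the block, Bcl2l11 was also called for Pax5WT against EV, Bcl2l1 and Bid for K198R against EV and Bcl2l1 for K198R against Pax5WT.

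Markers of other cells moved with K198R as well. The summed genes of immature and mature B cells, led by Cd22, stood at 1558 and 1194 with EV, 1567 and 1698 with Pax5WT, 1580 and 1257 with K198Q and 2765 and 2882 with K198R, and 3 of the 4 tested were called higher with K198R against EV (median log2 difference of the 4 tested 3.64, against 0.01 over all genes). T cell genes, led by Lck, a kinase of T cell receptor signalling, summed to 2492 and 3209 with EV, 2658 and 3198 with Pax5WT, 2725 and 2785 with K198Q and 1982 and 2633 with K198R, with 2 of 4 tested called lower with K198R against EV (median -2.26). NK cell genes, led by Nkg7, summed to 522 and 627 with EV, 233 and 262 with Pax5WT, 323 and 349 with K198Q and 141 and 91.3 with K198R, with 1 of 4 tested called lower (median -1.92). Myeloid genes, led by Itgam, an integrin chain, summed to 1011 and 729 with EV, 484 and 465 with Pax5WT, 746 and 714 with K198Q and 655 and 408 with K198R, with 2 of 4 tested called lower and 1 called higher (median -2.01). Plasma cell genes, led by Jchain, summed to 77889 and 75027 with EV, 52739 and 45885 with Pax5WT, 60174 and 51477 with K198Q and 43168 and 33694 with K198R, with 1 of 4 tested called higher and 1 lower (median -0.24). Stromal genes summed to 1581 and 1664 with EV, led by Pdgfrb, and to 979 and 2285 with Pax5WT, 1240 and 1839 with K198Q and 1011 and 1105 with K198R, led by Cxcl12, with 1 of 5 tested called lower (median 0.13). The part of these groups of genes in the changes of Pmaip1, Bcl2l11 and Bcl2l1 was not tested.

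**Figure D2:**
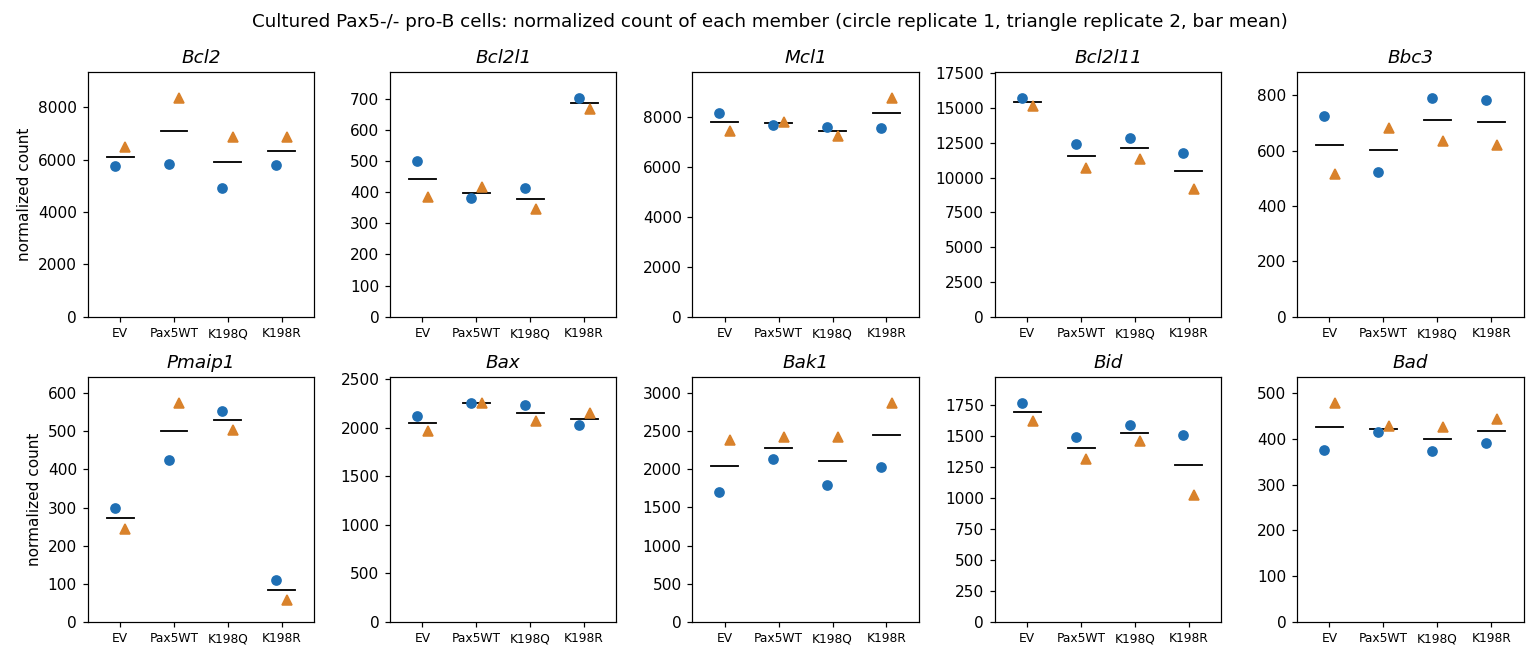
Normalized count of each member (y axis, from 0) in the 8 libraries of Pax5-/- pro-B cells, by insert on the x axis; the circle is replicate 1, the triangle replicate 2 and the bar their mean. Pmaip1 is lowest, at 109 and 58.5, and Bcl2l1 highest, at 704 and 669, with K198R, and Bcl2l11 is highest with EV.

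Genes of the pathway around the members were called with each insert. Foxo1, a transcription factor that can induce BH3-only genes, was at 2094 and 2042 with EV, 3420 and 3329 with Pax5WT, 2943 and 2709 with K198Q and 4914 and 4901 with K198R. It rose against EV with K198R (1.25 ± 0.08 on the log2 scale, adjusted p = 0.00024) and with Pax5WT (0.71 ± 0.08, adjusted p = 0.00541). Il7r, the receptor for the main survival cytokine of these cells, was at 1286 and 1293 with EV, 3614 and 3058 with Pax5WT, 3758 and 2796 with K198Q and 2019 and 1800 with K198R. It rose with Pax5WT (1.37 ± 0.15, adjusted p = 0.00414) and K198Q (1.33 ± 0.15, adjusted p = 0.00879), and K198R stood below Pax5WT by -0.80 ± 0.15 (adjusted p = 0.0393).

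Bok had 125 and 149 counts with EV, 195 and 195 with Pax5WT, 128 and 149 with K198Q and 365 and 393 with K198R, and rose by 1.47 ± 0.19 with K198R against EV (adjusted p = 0.00327). Casp6, an executioner caspase gene, fell from 2077 and 2148 with EV to 1048 and 1057 with K198R (-1.0 ± 0.10, adjusted p = 0.00135). Against EV, K198R called 1 of 7 other BCL2 family genes higher, 2 of 15 apoptosome and caspase genes lower, 2 of 16 upstream genes higher and 0 of 6 partner genes, where 9.92% of all genes were called. Pax5WT called 2 of the 16 upstream genes higher and K198Q 1, and no gene of the other 3 lists, where 3.25% and 0.922% of all genes were called.

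The cultures of wild-type and Sirt7-/- cells asked the same of Pax5WT and K198R where the cells keep their own Pax5. Bcl2l1 rose with K198R and no other member was called in the fit without a replicate block. It had 3032 and 2986 counts in wild-type EV, 2665 and 2975 in Sirt7-/- EV, 3800 and 3651 with Pax5WT and 3958 and 4176 with K198R. Both groups with an insert lay above both EV groups. In Sirt7-/- cells K198R exceeded EV by a log2 difference of 0.53 ± 0.10 (adjusted p = 0.024) and Pax5WT exceeded it by 0.40 ± 0.10 (adjusted p = 0.233), but the K198R call was lost without any 1 of the 4 libraries compared (adjusted p = 0.0685 to 0.172).

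In these cultures Bcl2 differed between the replicates of each group. It was read at 1909 and 1200 in wild-type EV, 3772 and 1178 in Sirt7-/- EV, 1671 and 748 with Pax5WT and 1282 and 594 with K198R, the first value of each pair being replicate 1. Replicate 1 was the higher in all 4 groups, and the groups overlapped. In the fit without a replicate block, the log2 difference between K198R and EV was -1.27 ± 0.62 (adjusted p = 0.332) and lay between -2.11 and -0.43 when a library was left out. With the block the difference in Bcl2 was called, at -1.27 ± 0.20 (limma, adjusted p = 0.00739). Bcl2l11 ran the other way, with 4231 and 6274, 4114 and 5692, 5224 and 6751, and 4453 and 6785 counts in the same order, so the ratio of Bcl2 to Bcl2l11 ranged from 0.917 in Sirt7-/- EV replicate 1 to 0.0875 in K198R replicate 2.

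Summed, the 5 genes of immature and mature B cells found in this table were higher in replicate 2 of all 4 groups. They summed to 1228 and 1733 in wild-type EV, 4142 and 7103 in Sirt7-/- EV, 9194 and 19610 with Pax5WT and 17347 and 38902 with K198R. Ighd was the most abundant in 7 of the 8 libraries and Cd22 in Sirt7-/- EV replicate 2. Among the 5, Cr2 was at low counts and went against the sum in the EV groups. It had 62.07 and 27.66 counts in Sirt7-/- EV and 37.25 and 31.32 in wild-type EV. Stromal genes, led by Cxcl12, summed to 3973 and 2814 in wild-type EV, 2582 and 3950 in Sirt7-/- EV, 4385 and 9529 with Pax5WT and 3310 and 7273 with K198R. T cell genes summed to 3132 and 2131 in wild-type EV, led by Lck, and to 2808 and 1616 in Sirt7-/- EV, 1038 and 383 with Pax5WT and 787 and 381 with K198R, led by Thy1. With K198R against EV in Sirt7-/- cells, 1 of 2 tested T cell genes was called lower (median log2 difference of both -2.28), as was 1 of 2 tested myeloid genes, which summed to 847 and 934 with EV and 715 and 922 with K198R. Of 5 plasma cell genes, led by Irf4, 2 were called lower (median -0.58), with sums of 11518 and 11694 with EV and 10017 and 8704 with K198R. The part of any of these groups of genes in the Bcl2 and Bcl2l1 values was not tested.

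Loss of Sirt7 in culture called 0 of 10 members in limma (0.557% of all genes), with 2 at an unadjusted p under 0.05 and 4 not overlapping between the genotypes (34.6% of all genes). Pmaip1 was at 175 and 171 in wild-type EV and 253 and 319 in Sirt7-/- EV (0.71 ± 0.21 on the log2 scale, adjusted p = 0.241). Bak1 was at 2545 and 2873 against 1953 and 2182 (-0.39 ± 0.12, adjusted p = 0.272), Bbc3 at 1125 and 1571 against 758 and 1110 (-0.54 ± 0.25, adjusted p = 0.559) and Bax at 3741 and 5271 against 3192 and 3942 (-0.32 ± 0.17, adjusted p = 0.655). Of these, only Bax overlapped between the genotypes.

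In Sirt7-/- cells Pax5WT against EV called 0 of 10 members in limma (0.0366% of all genes), with 1 at an unadjusted p under 0.05 and 3 not overlapping (38.7%). K198R against EV called 1 higher (4.83% in either direction, 2.09% higher), with 3 not overlapping (49.6%). K198R against Pax5WT called 0 (0.425%), with 0 at an unadjusted p under 0.05 and 5 not overlapping (37.7%). Bad, a BH3-only gene controlled by kinases, had 455 and 539 counts with EV, 512 and 526 with Pax5WT and 603 and 665 with K198R. It differed by 0.35 ± 0.15 between K198R and EV (adjusted p = 0.243) and by 0.29 ± 0.15 between K198R and Pax5WT (adjusted p = 0.679). Bbc3 was at 612 and 862 with K198R and 1029 and 1089 with Pax5WT (-0.54 ± 0.25, adjusted p = 0.608). Mcl1 stayed between 7122 and 8147 and Bid between 979 and 1431 in all 8 libraries.

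**Figure D3:**
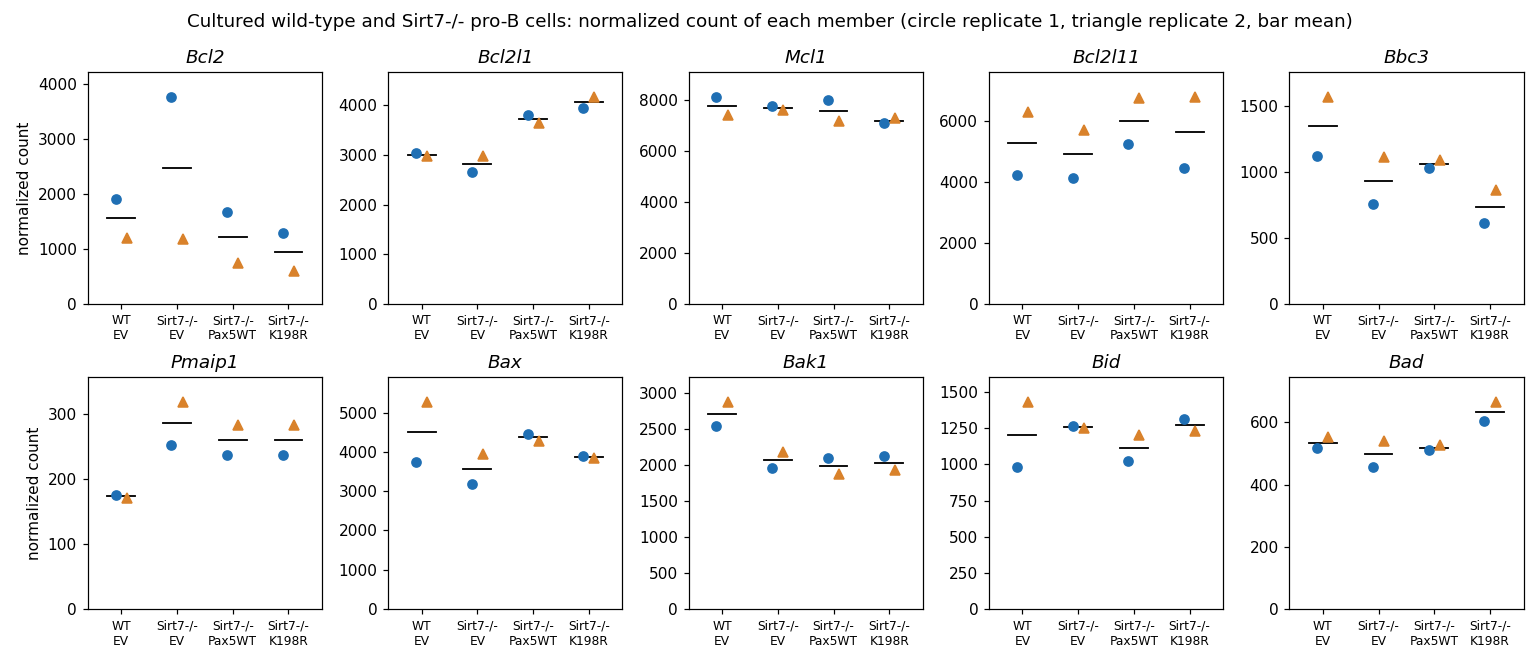
Normalized count of each member (y axis, from 0) in the 8 libraries of cultured wild-type and Sirt7-/- pro-B cells, by genotype and insert on the x axis; the circle is replicate 1, the triangle replicate 2 and the bar their mean. Bcl2l1 is higher with both inserts than with EV, and replicate 1 of Bcl2 is above replicate 2 in all 4 groups.

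Among the pathway genes of these cultures, Il7r fell with loss of Sirt7 and again with K198R. It had 10843 and 10445 counts in wild-type EV, 5361 and 6155 in Sirt7-/- EV, 5301 and 5873 with Pax5WT and 2431 and 2834 with K198R. The log2 differences were -0.89 ± 0.12 for Sirt7-/- against wild-type (adjusted p = 0.0234), -1.13 ± 0.12 for K198R against EV (adjusted p = 0.00455) and -1.09 ± 0.12 for K198R against Pax5WT (adjusted p = 0.0195). Il7r was the 1 gene called of 16 upstream genes in the first and the last of these comparisons, and no gene of the other 3 lists was called there.

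With K198R against EV, Pim1, a survival kinase gene that responds to cytokine signals, fell from 17230 and 14821 to 6719 and 6442 (-1.28 ± 0.14, adjusted p = 0.0053). Casp8, the initiator caspase of death receptors, fell from 2758 and 2640 to 1790 and 1706 (-0.63 ± 0.13, adjusted p = 0.0351), and Casp9, the initiator caspase of the apoptosome, rose from 462 and 502 to 763 and 901 (0.78 ± 0.16, adjusted p = 0.0344). With Il7r, these are all the calls among 15 apoptosome and caspase genes and 16 upstream genes, and none was made among 7 other BCL2 family and 6 partner genes. Pax5WT against EV called no gene of the 4 lists.

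**Figure D4:**
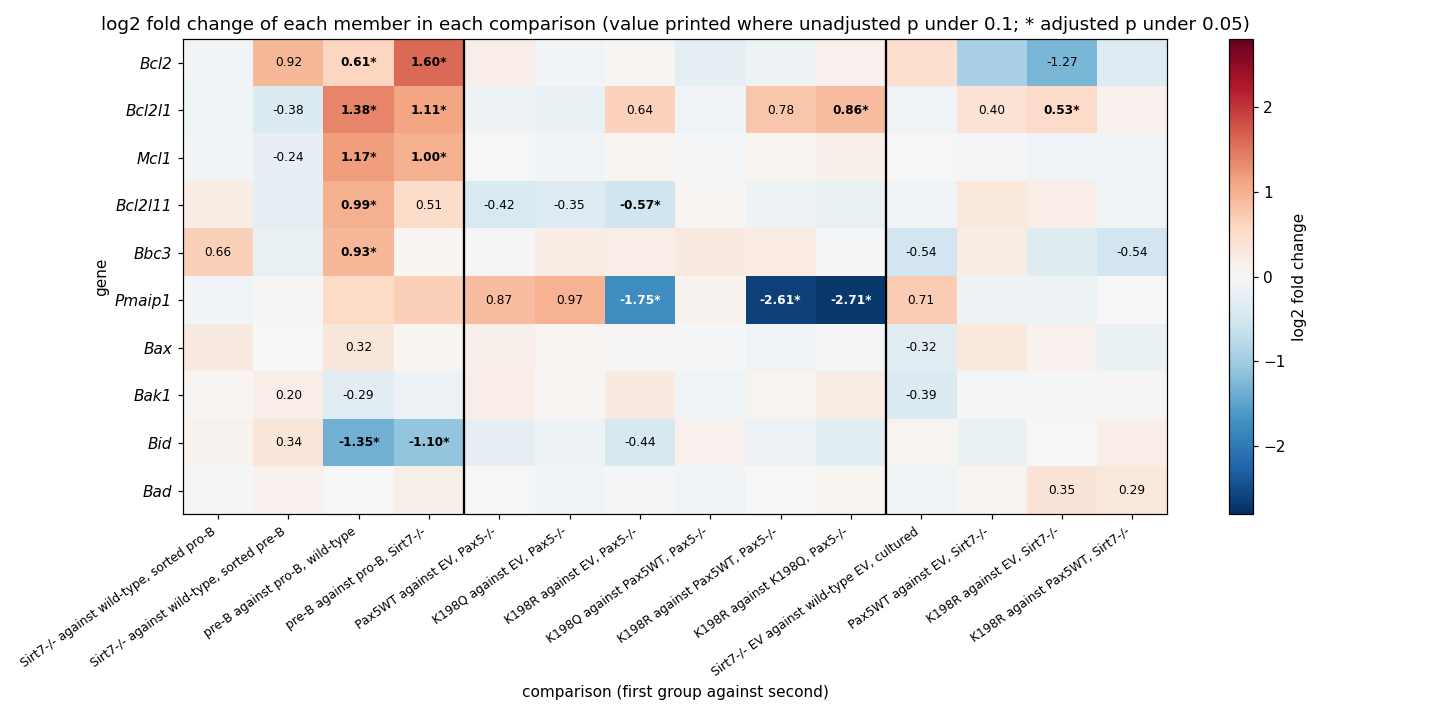
The log2 fold change of each member (rows) in 14 comparisons (columns; the vertical lines part the 3 tables); colour gives the value, the value is printed where the unadjusted p was under 0.1, and an asterisk marks an adjusted p under 0.05. The asterisks fall on 10 values of pre-B against pro-B cells, on Bcl2l11, Bcl2l1 and Pmaip1 with K198R in Pax5-/- cells and on Bcl2l1 with K198R in Sirt7-/- cells.

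The genes whose levels ran most like those of a member were sought for 3 members, Bcl2, Bcl2l1 and Pmaip1. They were taken by a rule on the range of group means, which crosses the separately normalized tables and therefore ranks neither levels nor changes of the members. The measure was the lowest Pearson correlation over the 3 tables, with 8 libraries each, among 10505 genes. Bcl2 came closest to Acyp1, Rnf145 and Aff1 (lowest r 0.71, 0.67 and 0.67), Bcl2l1 to Sbf2, Cd38 and Slc1a5 (0.86, 0.85 and 0.85) and Pmaip1 to Hlx, Spin1 and Gk5 (0.74, 0.73 and 0.73). The libraries of a table share groups and scaling, so these values are a description.

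Pax5 binding was read from the 6 peak lists, which held 10646 and 11830 peaks for Pax5WT, 3750 and 3957 for K198Q and 12158 and 13997 for K198R. Coordinates are of mm10. Over the 10 genes and 10 kb upstream the peaks merged into 37 regions, of which 16 were in both replicate lists of at least 1 form: 11 had their summit in an intron, 2 in an exon and 3 upstream of the gene. Both replicates of Pax5WT had 15 of these regions, those of K198R 11 and those of K198Q 3, and 7 were in both replicates of Pax5WT and of K198R but not of K198Q. The K198Q lists are shorter over the whole genome, and a site lost with K198Q and a site under the threshold in a shorter list cannot be told apart.

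Counted by gene, 7 of 10 members had a peak in both replicates of Pax5WT, where 40.7% of 13270 genes had one, 7 with K198R (47.1%) and 3 with K198Q (15.5%). Bcl2, Bcl2l1, Mcl1, Bcl2l11, Bbc3 and Bad had one with both Pax5WT and K198R, and so did Pmaip1, whose peaks in the K198R lists lay at different places. Mcl1, Bcl2l11 and Bcl2l1 were the 3 with K198Q. The windows of the members held 4.84 peaks per 100 kb in each Pax5WT list, against 1.23 and 1.40 over all these genes. In the K198R lists they held 3.915 and 6.217, against 1.47 and 1.631. In the K198Q lists they held 0.921 and 1.15, against 0.457 and 0.474.

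The sequences round the summits are shown for the 3 regions found in all 6 lists, for an intronic region of Bcl2 found with Pax5WT and K198R alone, and for the region upstream of Bad. Each is 201 bases of the + strand of mm10 centred on the summit of the strongest peak. Capitals mark the central 21 bases, except for Bad, where they mark the motif GCGTGAC.
Mcl1, 166 bases upstream of the start, chr3:95658522-95658722: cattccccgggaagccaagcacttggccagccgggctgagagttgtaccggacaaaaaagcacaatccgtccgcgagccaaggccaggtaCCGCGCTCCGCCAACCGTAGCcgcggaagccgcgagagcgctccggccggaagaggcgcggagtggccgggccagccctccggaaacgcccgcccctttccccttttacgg
Bcl2l11, 263 bases upstream of the start, chr2:128125675-128125875: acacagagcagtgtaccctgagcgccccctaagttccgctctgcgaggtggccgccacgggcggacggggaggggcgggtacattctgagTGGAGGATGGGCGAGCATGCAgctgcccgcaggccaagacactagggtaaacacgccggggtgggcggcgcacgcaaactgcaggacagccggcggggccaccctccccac
Bcl2l1 intron, 37017 bases from the start, chr2:152794611-152794811: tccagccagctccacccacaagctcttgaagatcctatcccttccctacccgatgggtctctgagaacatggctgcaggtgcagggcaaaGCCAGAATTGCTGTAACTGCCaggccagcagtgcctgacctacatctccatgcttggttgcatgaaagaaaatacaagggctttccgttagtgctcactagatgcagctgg
Bcl2 intron, 158554 bases from the start, chr1:106555620-106555820: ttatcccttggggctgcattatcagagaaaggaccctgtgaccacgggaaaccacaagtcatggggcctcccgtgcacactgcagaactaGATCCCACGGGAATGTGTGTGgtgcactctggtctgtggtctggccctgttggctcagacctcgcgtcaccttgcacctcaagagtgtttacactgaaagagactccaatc
Bad, at -7864 bases from the start, chr19:6933897-6934097: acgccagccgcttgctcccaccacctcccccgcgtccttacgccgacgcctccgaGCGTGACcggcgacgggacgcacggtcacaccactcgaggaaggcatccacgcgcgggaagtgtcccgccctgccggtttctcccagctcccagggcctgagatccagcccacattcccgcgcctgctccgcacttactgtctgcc

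The promoter windows of Mcl1 and Bcl2l11 were rich in G and C, 68.2% and 69.2%, and so was the window upstream of Bad, 69.7%, while the intronic windows held 53.2% to 54.7%. The letters GCGTGAC, a version of the core that Pax proteins bind, were searched on both strands, as were its variant GCATGAC with a change at the third letter and its variant GCGTAAC with a change at the fifth. Of the 37 regions 3 held a match: the region upstream of Bad (GCGTGAC on the + strand, 45 bases before the summit), a region of Bbc3 found in 1 list and a region of Bcl2 found in 1 list. These regions were searched over their whole length, 200 to 960 bases. Their count is therefore not on the same footing as the shares of fixed windows that follow. Over all summit windows of 201 bases, 10.8% and 10.1% of the Pax5WT, 12.9% and 13.2% of the K198Q and 9.45% and 9.44% of the K198R windows held at least 1 of these, so the letters are absent from most windows of these lists.

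The Mcl1 promoter held the strongest peak of the members, by fold enrichment and q, in every list but K198R replicate 1, where the Bcl2l1 intron was ahead. Its fold enrichment over input was 21.4 and 13.8 with Pax5WT, 13.9 and 11.8 with K198Q and 11.3 and 15.9 with K198R, where the lists' medians were 5.60 to 5.83. By q value it ranked 91st of 10646 and 286th of 11830 peaks with Pax5WT, 80th and 229th with K198Q and 640th and 506th with K198R. A region 708 bases inside the gene (chr3:95659264-95659734, intron) was in both Pax5WT lists and K198R replicate 2. Mcl1 transcript differed little between inserts (7271 to 8779 in Pax5-/- cells, above).

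The Bcl2l11 promoter peak (chr2:128125562-128126521) had a fold enrichment of 9.61 and 5.14 with Pax5WT, 4.34 and 4.32 with K198Q and 7.48 and 12.9 with K198R. A region in an exon, 1583 bases from the start (chr2:128127224-128127980), was in both lists of Pax5WT and K198R. In the same cells Bcl2l11 transcript was lower with each insert than with EV, and passed the test with K198R. With Pax5WT it passed only in the fit with a replicate block.

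Bcl2l1 held 9 regions, 4 of them in both replicates of a form. The intronic region 37017 bases from the start (chr2:152794224-152794902) was in all 6 lists, with a fold enrichment of 5.55 and 10.0 with Pax5WT, 6.56 and 8.03 with K198Q and 11.9 and 8.92 with K198R. Another, 41875 bases from the start (chr2:152789227-152790049), was in 5 lists, all but K198Q replicate 2, and one more, 493 bases from the start in an intron (chr2:152831037-152831455), in all but K198Q replicate 1. The region 38930 bases from the start (chr2:152792469-152792975) was in both Pax5WT lists and K198R replicate 2.

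Bcl2, the longest member at 176097 bases, held 12 regions, 5 of them in both replicates of a form, and had no peak in either K198Q list. The intronic region at 158554 bases from the start (chr1:106555545-106555862) was in both lists of Pax5WT and of K198R, with fold enrichments of 7.26 and 4.70 with Pax5WT and of 6.82 and 8.57 with K198R. The annotation places a further gene, D630008O14Rik, over it. The region at 107184 bases was in both Pax5WT lists alone, that at 26205 bases in both Pax5WT lists and K198R replicate 2, and that at 101303 bases in both K198R lists and Pax5WT replicate 1. Bcl2 transcript was not called between K198Q and Pax5WT or K198R.

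Among the BH3-only genes, Bbc3 held an intronic region 1822 bases from the start (chr7:16309934-16310651) in all lists but K198Q replicate 1, at fold enrichments of 4.82 to 7.08. Pmaip1 had a peak 33 bases from its start, in an exon, in both Pax5WT lists, at 6.52 and 5.05, and in K198R replicate 1, at 4.51. The region upstream of Bad (chr19:6933780-6934159) was in both lists of Pax5WT, at 6.21 and 7.13, and of K198R, at 5.02 and 4.32; it lies within Kcnk4 and 518 bases from the start of that gene, far nearer than to Bad. Bid, Bax and Bak1 had 1 region each, found in 2 lists: Bid 66 bases upstream of its start in Pax5WT replicate 1 and K198R replicate 1, Bax 53 bases from its start in Pax5WT replicate 2 and K198R replicate 1, and Bak1 in an intron 3082 bases from its start in Pax5WT replicate 1 and K198R replicate 2.

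**Figure D5:**
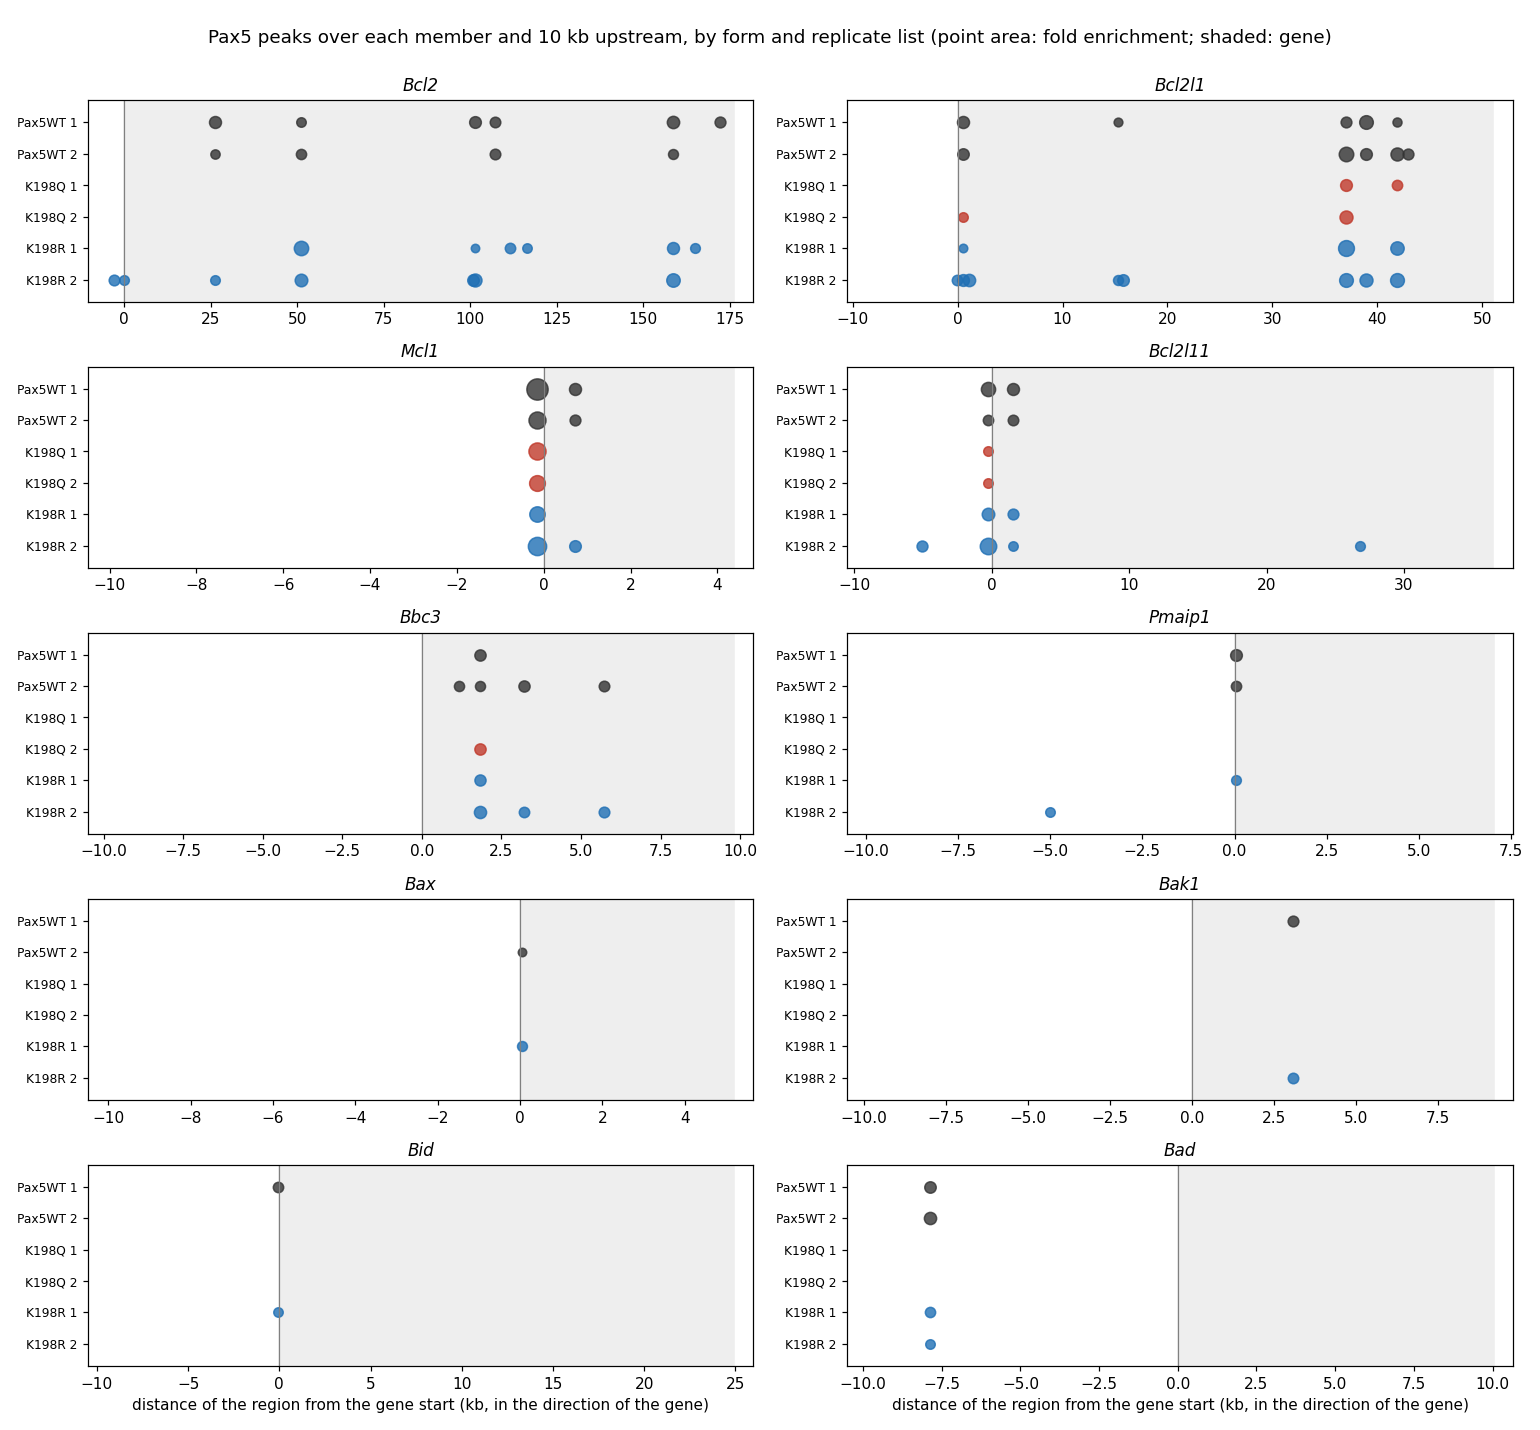
Pax5 peaks over each member and 10 kb upstream: the x axis is the distance of a region from the gene start in kb, the rows are the 6 lists (form and replicate), the area of a point is the fold enrichment and the shading is the gene. Mcl1, Bcl2l11 and Bcl2l1 have a region in all 6 lists, and Bcl2 has none in the K198Q lists.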

How the data were processed

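RNA-seq was made from sorted and cultured mouse B cell progenitors and Pax5 ChIP-seq from Pax5-/- cells with 3 forms of Pax5. The deposited RNA values are a signal, normalized counts per gene: per the methods the authors quantified reads with Salmon on mm10, imported them with Tximeta and scaled them by the median of ratios of DESeq2. For sorted cells 100% of values came out as whole reads (within 0.01), 50004827 to 55536608 a library; the reads of the other tables were not recovered, and their normalized counts sum to 28865461 to 30520853 and 27814214 to 30160880. Peaks were called by the authors per replicate with MACS2 over input after Bowtie2; the deposited lists give a score, a fold enrichment (ratio), and -log10 p and q. The second K198R list names its peaks R3 and was used as replicate 2 as labelled. Versions of these tools are not given in the sources used here.

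Each table was fitted with limma 3.58.1 (variance trend, all 4 groups in 1 fit) on log2(normalized count + 1), keeping genes that reached 10 normalized counts in 2 or more libraries, with Benjamini-Hochberg adjustment over all genes tested, called under 0.05. Fold changes are on that scale, errors after ± are standard errors of the fit with n = 2 libraries a group, and p-values measure the spread between these libraries. An exact test of 2 against 2 cannot go below p = 0.33 and was not used. Alternatives, given in the closing section, were a pseudocount of 10, no filter, fits of the compared groups alone, TMM scaling, a replicate block, each library left out, and on the whole reads edgeR 4.0.16 and DESeq2 1.42.0. The steps were tested on simulated data. Members with an unadjusted p under 0.1 are given with a fold change, which covers 43 of 150 pairs of member and comparison. Outside these, the flagged results also give Bak1 in sorted pro-B and Bbc3 in sorted pre-B cells.

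In sorted cells, pro-B and pre-B libraries of a mouse pair by the labels (correlation of deviations 0.156 in Sirt7-/- and 0.0798 in wild-type mice). Levels per length use the union of GENCODE M21 exons. A peak counted for a gene with 1 base of overlap. The members, lists and tests were chosen with earlier results of these data known. Named genes were the members, Pax5 and Sirt7, up to 4 called genes of the pathway lists a comparison by size of change, the 3 genes most like each of 3 members, and peaks in both replicates of a form, except items not reported here. Python 3.11.15 and R 4.3.3 were used.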

Additional observations from a re-analysis of the deposited data

Results flagged for a closer look

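The effect of Sirt7 loss on Bbc3 pointed one way in sorted and the other way in cultured pro-B cells: every sorted Sirt7-/- pro-B library was above every wild-type one (log2 difference 0.66), and both cultured Sirt7-/- EV libraries were below both wild-type EV libraries (-0.54). For Bak1 the same held between sorted pre-B cells (0.20) and the cultures (-0.39), which are pro-B cells. In sorted pro-B cells Bak1 differed by 0.06 (adjusted p = 0.987, limma), with overlapping groups. None of these differences passed the limma test, with adjusted p-values of 0.851 in the sorted cells and 0.559 in the cultures for Bbc3 and of 0.441 and 0.272 for Bak1. In sorted pre-B cells Bbc3 was at a mean of 431.8 in Sirt7-/- against 502.8 in wild-type cells (log2 difference -0.21, adjusted p = 0.799). The tables were normalized separately, the cells differ in stage and culture, and the differences between these effects were not tested.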

How the results depend on the processing

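No alternative changed the direction of any of the 43 fold changes with an unadjusted p under 0.1. Selection by that p itself favours changes of stable sign. Of 435 refits of these, 394 kept their side of the threshold, 29 lost the call and 12 gained it. Of the other 107 pairs of member and comparison, 66 changed sign in at least 1 refit, mostly when a library was left out, and no direction is read from them. They include Bak1 in sorted pro-B and Bbc3 in sorted pre-B cells, whose differences between genotypes are given above. Members called in Sirt7-/- against wild-type sorted pre-B cells numbered 1 with DESeq2, which called 728 of all genes there and 128 in pro-B cells, where limma called 15 and 11 and edgeR 5 and 10. In Pax5-/- cells K198R against EV called 1 without the filter, 1 with only the groups compared and 0 to 3 when a library was left out. K198R against Pax5WT called 0 with only the groups compared and 0 to 1 when a library was left out; K198R against K198Q called 1 without the filter, 1 with only the groups compared and 0 to 1 when a library was left out. In Sirt7-/- cells K198R against EV called 0 when any 1 library was left out. Members with a K198Q peak in both lists numbered 5 with 50 kb upstream. The pseudocount, TMM scaling and a stricter q changed no other count by over 1.5 times.

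Replicate numbers 1 and 2 of the cultures are not tied to a shared source by the labels, and the methods say only that replicates were made on different days. Same-numbered libraries of different groups deviated together in all pairs of groups (r 0.264 to 0.383 in Pax5-/- and 0.157 to 0.428 in wild-type and Sirt7-/- cultures). With the replicate block, Pax5WT against EV called 1 member in Pax5-/- cells (Bcl2l11, adjusted p = 0.0133), K198R against EV 4 (with Bcl2l1, 0.0166, and Bid, 0.0303), K198R against Pax5WT 2 (with Bcl2l1, 0.0167) and K198R against EV in Sirt7-/- cells 2 (with Bcl2, 0.00739). The block by mouse in the sorted cells changed no call of a member.

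Every group had 2 libraries. No spike-in or protein measurement was used here, normalized counts give relative levels, and depth for the peak lists was not analysed here.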
